A study of Mus musculus with 3 samples.

Results

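Wt1, Pax2, Pax8 and Lhx1 are 4 transcription factor genes that were chosen by symbol, 4 of the 28875 nuclear-encoded features in the deposited tables. Their levels were described on 3 plates of mouse embryonic kidney cells, together with 4 partner genes measured in the same wells: Six2, Foxd1, Epcam and Podxl. Cells were released with collagenase, sorted into plates of 384 wells and processed by SORT-seq, a single-cell method that reads polyadenylated RNA and counts molecules by unique molecular identifiers. The series asks how cells expressing LGR6, a receptor named in its title as a nephron progenitor marker, contribute to the kidney. The uncultured plate came from E11.5 embryos of the LGR6-EGFP-IRES-CreERT2 line on a C57BL/6 background. The E12.5 cultured plate and the E11.5 cultured plate came from kidneys of LGR6-EGFP-IRES-CreERT2/ROSA26-tdTomato embryos, also on C57BL/6, grown as explants in DMEM with fetal calf serum and antibiotics. The labels give 5 days of culture for the E12.5 explants. For the E11.5 explants one label gives 7 days and another gives 5. The reporter and the CreERT2 are driven from the Lgr6 locus; the labels give neither the sort gate nor the number of animals per plate. Each condition is 1 plate, so no test between conditions was possible. Every interval below is a 95% interval that covers counting error only, not the spread between embryos, explants or plates. Culture, the tdTomato allele and the sequencing run all differ between the uncultured and the cultured plates, and cannot be told apart. For the E12.5 cultured plate the embryonic day at the start differs as well.

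In the developing kidney, Six2-positive cap mesenchyme cells are the nephron progenitors, and Foxd1-positive cells are the progenitors of the stroma. Some cap cells leave the progenitor state, form a pretubular aggregate and then an epithelial renal vesicle, from which the tubule and the podocytes of the glomerulus arise. Wt1, a zinc finger factor, is known from the cap mesenchyme, then from podocytes, and outside the nephron from coelomic epithelium and gonad. Pax2 and its paralog Pax8 are paired domain factors of the nephron lineage and the ureteric bud, and Pax8 is typical of cells that have begun to form a nephron. Lhx1, a LIM homeodomain factor, is known from the renal vesicle and from the ureteric bud. Epcam marks epithelium, and Podxl marks podocytes and endothelium.

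The listed promoter windows held none for Wt1. Pax2, Pax8 and Lhx1 were the 3 members that were lower on the E11.5 cultured plate than on both other plates. Their counts lay in the same uncultured wells more often than outside them. Promoter windows are shown for these 3. Each is the stretch of 250 bases before an annotated start in RefSeq on GRCm38.p6, written 5′ to 3′ on the gene's strand. Capitals mark a GC box (GGGCGG, or CCGCCC on the other strand) or a CCAAT box (CCAAT, or ATTGG on the other strand). Pax2 has 3 listed starts, and the third is shown because it lies farthest downstream. Reads at the 3′ end do not tell which start was used. The windows are chr19:44756656-44756905 on the plus strand for Pax2, chr2:24475600-24475849 on the minus strand for Pax8 and chr11:84525535-84525784 on the minus strand for Lhx1.
Pax2: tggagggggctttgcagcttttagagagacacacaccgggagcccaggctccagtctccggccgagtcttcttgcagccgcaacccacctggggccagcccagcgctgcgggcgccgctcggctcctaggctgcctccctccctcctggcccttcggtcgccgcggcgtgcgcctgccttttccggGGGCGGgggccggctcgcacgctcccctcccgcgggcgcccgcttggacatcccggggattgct
Pax8: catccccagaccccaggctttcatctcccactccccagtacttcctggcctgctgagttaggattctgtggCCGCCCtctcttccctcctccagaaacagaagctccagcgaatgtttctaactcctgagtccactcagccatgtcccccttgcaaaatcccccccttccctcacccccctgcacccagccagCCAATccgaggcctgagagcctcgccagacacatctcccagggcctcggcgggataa
Lhx1: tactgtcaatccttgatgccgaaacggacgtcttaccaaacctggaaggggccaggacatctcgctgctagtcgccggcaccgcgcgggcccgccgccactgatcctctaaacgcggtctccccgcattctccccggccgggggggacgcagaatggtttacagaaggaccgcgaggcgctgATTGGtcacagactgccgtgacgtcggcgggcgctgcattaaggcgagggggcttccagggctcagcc
The GC content of these windows was 72.8% for Pax2, 60.4% for Pax8 and 64.8% for Lhx1, against a median of 52.4% over all 32851 listed windows of that length. The windows of the first and second Pax2 start, not shown, had 52.8% and 60.8%. The first held neither motif, and the second a GC box 28 bases before its start. The Pax2 window shown held a GC box 64 bases before the start. The Pax8 window held a GC box at 179 bases and a CCAAT box at 57 bases, and the Lhx1 window a CCAAT box at 68 bases. These short motifs are common: 32.7% of all windows held GGGCGG and 33.8% held CCAAT on either strand. None of the 3 windows shown held TATAAA (12.4% of all windows), GCGTGGG (4.30%), GTCACGC (1.78%) or TAATTA (4.84%) on either strand. The matches are descriptions of letters, not of bound sites.

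Wells with at least 1000 nuclear-encoded counts and at most 30% mitochondrial counts were kept: 337 of 369 uncultured, 200 of 327 from E12.5 culture and 300 of 327 from E11.5 culture. They held 4159791, 2349129 and 3210838 counts, with medians per well of 6732, 9212 and 8992. Deep wells, above 3 times the plate median, numbered 32 on the uncultured plate and held 45.6% of its counts, against 7 wells with 15.0% and 9 wells with 10.6% on the cultured plates. Each plate has 15 control wells in column 24. Those of the uncultured plate were not empty: they held 13768 counts in all, 7 of them exceeded 1000 counts, and Wt1 had 19 counts in 10 of them, or 1380 counts per 1000000 (831 to 2155). Pax2 had 4 counts in these wells and Pax8 and Lhx1 1 each. In the control wells of the cultured plates the members had 1 Pax8 count (E12.5) and 1 Wt1 count (E11.5). An uncultured well with Wt1 reads is therefore not by itself a Wt1-expressing cell. Shares in the uncultured classes of wells are given beside those in macrophage wells, where the gene should be absent. Shares for co-detection and for combinations of members have no such background beside them.

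Levels are given as counts per 1000000 nuclear-encoded counts (CPM), summed over the kept wells of a plate. All 4 members were lower on both cultured plates than on the uncultured plate, and Lhx1 was the 1 that separated the cultured plates most. Wt1 stood at 686 CPM (661 to 712) uncultured, 169 (153 to 186) on the E12.5 and 247 (230 to 265) on the E11.5 cultured plate. Its 3 intervals do not overlap, and the 2 cultured plates stand in the reverse order to the other members. Pax2 stood at 297 CPM (280 to 314), 47.7 (39.3 to 57.4) and 31.8 (25.9 to 38.6) in the same plate order. Pax8 stood at 158 CPM (146 to 170), 26.0 (19.9 to 33.4) and 13.7 (9.96 to 18.4). Lhx1 stood at 65.1 CPM (57.6 to 73.4), 15.4 (10.8 to 21.3) and 1.56 (0.506 to 3.63), the last from 5 counts. For Pax2, Pax8 and Lhx1 the 3 intervals were also separate, narrowly so for Pax2 and Pax8 on the cultured plates. In these summed values, fewer cells of a type and less RNA per cell cannot be told apart.

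**Figure D1:**
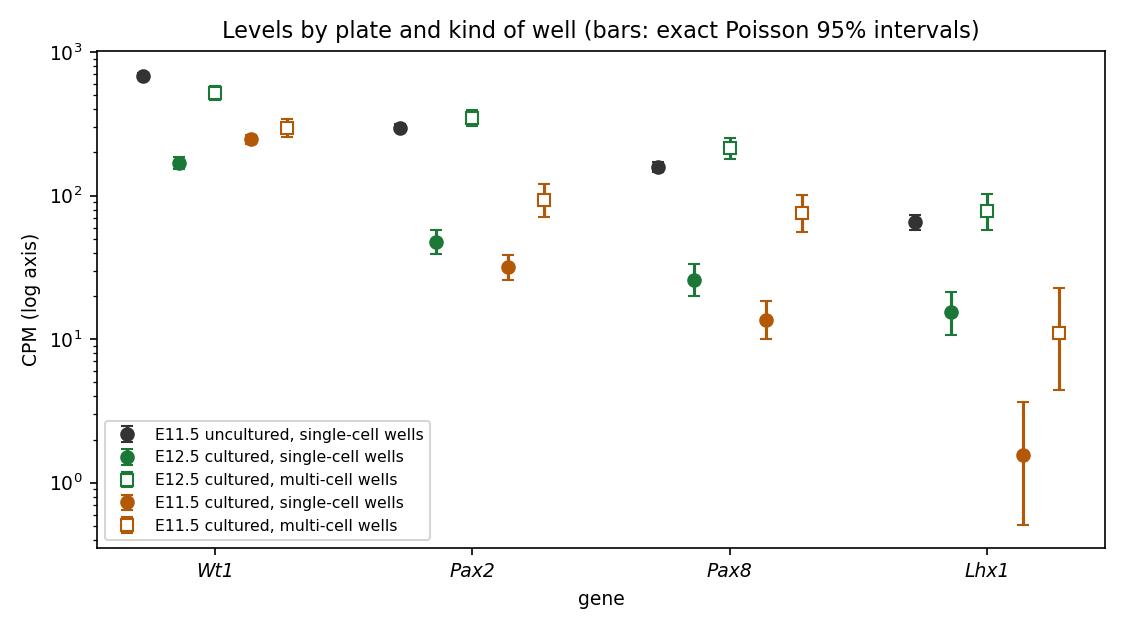
Level of Wt1, Pax2, Pax8 and Lhx1 in CPM (log axis) on the 3 plates, with filled circles for single-cell wells, open squares for multi-cell wells and bars for exact Poisson 95% intervals. Among single-cell wells the uncultured plate is highest for every member. Multi-cell wells of the E12.5 cultured plate lie above its single-cell wells for all 4, and above the uncultured single-cell wells for Pax2, Pax8 and Lhx1.

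From the uncultured to the E12.5 cultured plate, Wt1 was 4.06-fold lower (3.66 to 4.53), Pax2 6.22-fold (5.12 to 7.62), Pax8 6.07-fold (4.67 to 8.03) and Lhx1 4.24-fold. Of 15179 genes compared, 12.4% were at least 2-fold lower and 4 of the 4 members were. Lhx1 on the E12.5 cultured plate rests on 1 well, F9, which held 22.1 of 36.1 counts. With the highest well of each plate left out, the Lhx1 level there was 6.01 CPM and its ratio to the uncultured plate was 0.131 in place of 0.236. Against the uncultured plate, 11.4% of 15777 genes were at least 2-fold lower on the E11.5 cultured plate, where all 4 members again were. Both cultured plates were set against the same uncultured wells, so these are not separate pieces of evidence. Among all genes compared on the E11.5 cultured plate, 4.77% lay lower than Wt1 in this ratio, 0.406% lower than Pax2, 0.304% lower than Pax8 and 0.038% lower than Lhx1. Between the cultured plates, with E11.5 over E12.5, the ratio was 1.47 for Wt1 (1.30 to 1.66), 0.667 for Pax2 (0.504 to 0.879) and 0.528 for Pax8 (0.350 to 0.790), and Lhx1 was 9.87-fold lower (3.85 to 32.1). Only Lhx1 passed 2-fold there, where 4.54% of 15349 genes were lower by 2-fold or more and 8.1% were higher by as much.

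The partner genes did not all follow. Six2 was 312 CPM uncultured, 77.6 at E12.5 and 42.4 at E11.5 in culture, 4.02-fold and 7.36-fold lower. Foxd1 was 339, 173 and 94.4 CPM, 1.96-fold and 3.59-fold lower. Epcam was 22.6, 22.6 and 10.3 CPM, a ratio of 1.00 for the E12.5 cultured plate and a 2.20-fold lower level on the E11.5 cultured plate. Podxl was 28.8, 29.5 and 25.0 CPM, and on neither cultured plate did it differ beyond counting error. Podxl in culture rests largely on single wells: L23 held 65.3% of its counts on the E12.5 cultured plate and G13 56.4% on the E11.5 cultured plate. Epcam was thus level on the E12.5 cultured plate while the 4 members were not.

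Single wells show how these sums arose. On the uncultured plate Wt1 was detected, with at least some count, in 283 of 337 kept wells (84.0%), Pax2 in 191 (56.7%), Pax8 in 127 (37.7%) and Lhx1 in 57 (16.9%). On the E12.5 cultured plate the numbers were 100, 42, 25 and 13 of 200 wells, and on the E11.5 cultured plate 193, 30, 23 and 3 of 300 wells. The median well held 548 CPM of Wt1 uncultured, 19.3 at E12.5 and 121 at E11.5 in culture. For Pax2 the median well held 143 CPM on the uncultured plate and none on the cultured plates, and for Pax8 and Lhx1 it held none on any plate. The highest single wells differed less than the sums: the highest Wt1 well had 3730 CPM uncultured, 3160 on the E12.5 and 5445 on the E11.5 cultured plate. For Pax8 the highest wells had 2288, 678 and 808 CPM. Wells of high Wt1 therefore occurred on all 3 plates.

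Depth differs between wells, so each well was also thinned to 3000 counts, which left out 41, 9 and 12 shallower wells. Wt1 then remained in 70.3% of 296 uncultured wells, 27.7% of 191 E12.5 cultured wells and 42.7% of 288 E11.5 cultured wells. Pax2 remained in 42.6%, 7.85% and 3.47%, Pax8 in 22.6%, 4.71% and 3.82%, and Lhx1 in 10.8%, 2.62% and 0.694%. The order of the plates stayed as in the summed levels for each member.

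Wells were then split by the partner genes, at the full depth of each well, into wells with Six2 but neither Foxd1 nor Epcam (Six2-only), with Six2 and Foxd1, with Foxd1 only, with Epcam but not Six2, and with none of the 3. On the uncultured plate, Pax2, Pax8 and Lhx1 were several times higher in Six2-only than in Foxd1-only wells, and Wt1 differed less. In the 52 Six2-only wells Wt1 was 742 CPM (670 to 819), Pax2 457 (401 to 518), Pax8 242 (202 to 288) and Lhx1 82.1 (59.4 to 111). In the 98 Foxd1-only wells Wt1 was 516 CPM (463 to 574), Pax2 70.0, Pax8 25.9 and Lhx1 13.7. The ratio of the 2 was 1.44 for Wt1 (1.24 to 1.67), 6.52 for Pax2 (4.74 to 9.14), 9.37 for Pax8 (5.62 to 16.6) and 5.99 for Lhx1 (2.88 to 14.0). Without deep wells these ratios were 1.46, 6.57, 10.5 and 7.43.

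A class of 17 uncultured wells with at least 5 of 13 macrophage markers gives a background for the shares; whether its member counts come from free RNA or from wells with more than 1 cell was not tested. Their median depth was 6312 counts, against 5349 in Foxd1-only and 7962 in Six2-only wells. Wt1 was detected in 82.4% of these macrophage wells and in 81.6% of Foxd1-only wells, so detection of Wt1 in Foxd1-only wells is at the background. Pax2 was detected in 47.1% of macrophage and 34.7% of Foxd1-only wells, Pax8 in 23.5% and 16.3%, and Lhx1 in 5.88% and 8.16%. In Six2-only wells the shares were 88.5% for Wt1, 73.1% for Pax2, 51.9% for Pax8 and 19.2% for Lhx1. By level, with wells in both classes left out, Six2-only wells were above macrophage wells by 2.75-fold for Wt1 (1.89 to 4.13). The ratio was 4.64 for Pax2 (2.55 to 9.42) and 5.42 for Pax8 (2.26 to 17.0). For Lhx1 it was 9.18, with a wide interval (1.56 to 371), since Lhx1 stood at only 9.13 CPM in the macrophage wells. Foxd1-only wells were 1.86 times the macrophage wells for Wt1 (1.22 to 2.98), 0.634 for Pax2 (0.306 to 1.48) and 0.441 for Pax8 (0.156 to 1.53). The stromal wells thus stood above the macrophage wells in Wt1 level but not in Pax2 or Pax8.

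**Figure D2:**
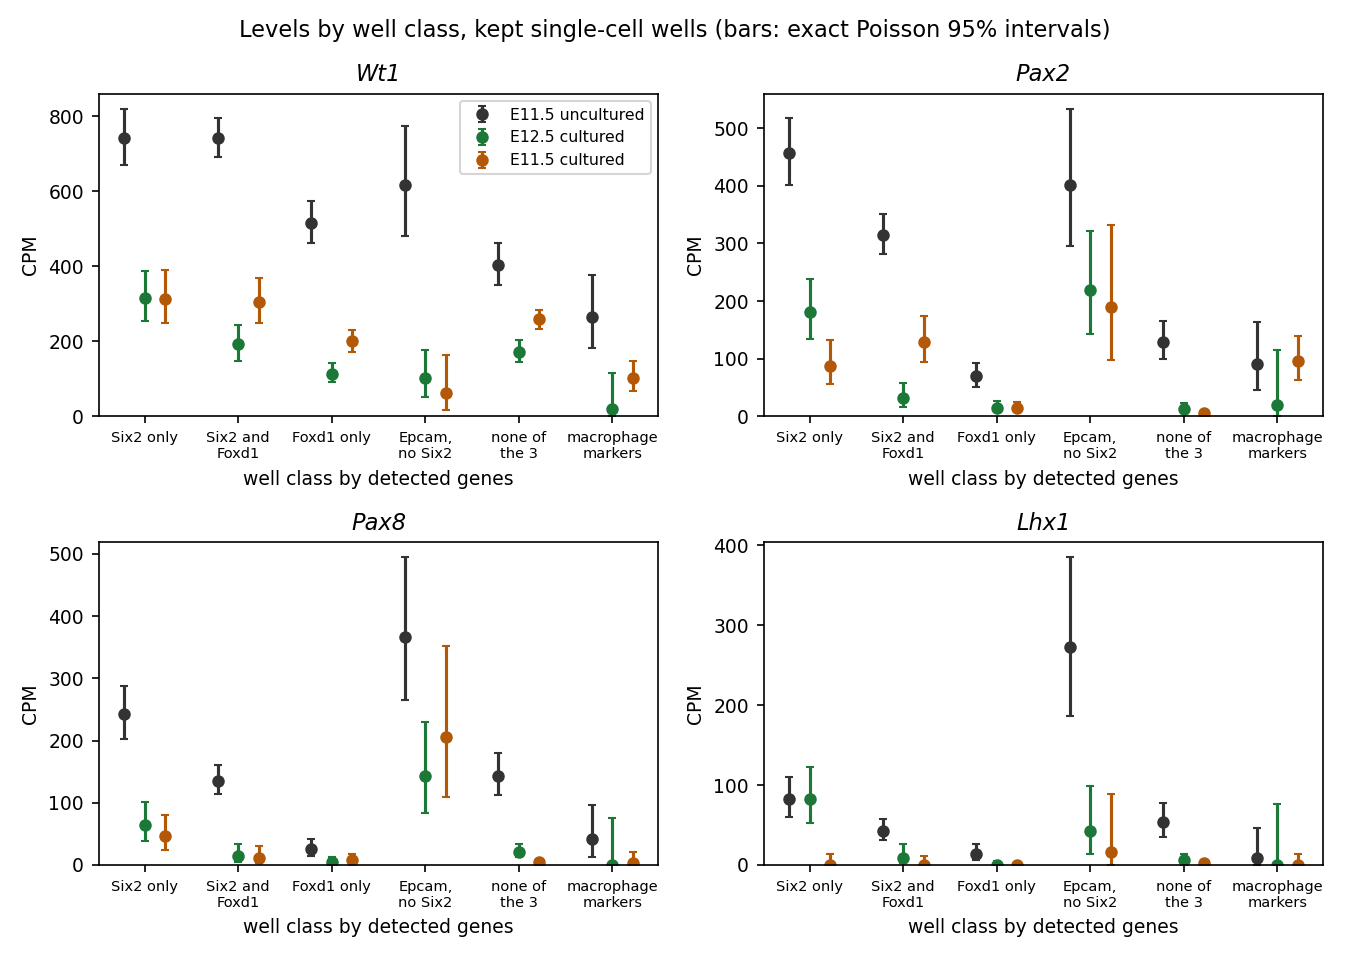
Level of each member in CPM (linear axis, 1 panel per gene) in 6 classes of kept single-cell wells on the 3 plates, with exact Poisson 95% intervals. Pax2, Pax8 and Lhx1 are low in Foxd1-only wells on every plate, whereas Wt1 in the uncultured Foxd1-only wells is 516, against 742 in Six2-only wells.

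The 13 uncultured wells with Epcam but without Six2 carried the highest Lhx1 level of these classes, 273 CPM (186 to 385), and Pax8 at 367 (266 to 494). Against Six2-only wells, Pax8 was 1.51 times as high (1.04 to 2.15) and Lhx1 3.32 times (2.03 to 5.37). This rests on the deep wells: without them, 11 wells remained, with 55.2 CPM of Pax8 and 110 of Lhx1, and the ratios were 0.194 and 1.04. The 65 wells with none of Six2, Foxd1 and Epcam held 144 CPM of Pax8 and 53.3 of Lhx1, more than Foxd1-only wells by 5.55-fold and 3.89-fold. Lhx1 lay in only 5 of these wells, and 1 of them, B2, held 22.1 of the 27.1 counts. Among 51 wells with at least 5 of 21 ureteric bud markers, whose median depth of 16646 was high, Wt1 was 766 CPM, Pax2 372, Pax8 198 and Lhx1 101. Those levels lie close to the ones in Six2-containing wells, so at this depth the ureteric markers did not pick out wells without Wt1.

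On the E12.5 cultured plate Pax2 was again high in Six2-only and low in Foxd1-only wells. The summed Pax8 level stood in the same order but rested mostly on 1 Six2-only well, F9. In 18 Six2-only wells Wt1 was 316 CPM, Pax2 181, Pax8 63.8 and Lhx1 81.9, with Pax8 and Lhx1 each in 2 wells. For Pax8 these were F9, with 14 counts, and C14, with 4. In 72 Foxd1-only wells Wt1 was 114 CPM, Pax2 15.2 and Pax8 4.16. No Lhx1 was counted in these wells, where 3 counts would stand at 4.16 CPM. The ratios were 2.77 for Wt1 (2.03 to 3.79), 11.9 for Pax2 (6.10 to 25.2) and 15.3 for Pax8 (4.48 to 81.3). In 12 wells with Epcam but without Six2, Pax2 was 219 CPM and Pax8 143, which is 14.4 times (6.87 to 32.3) and 34.5 times (9.98 to 184) the Foxd1-only level, whereas the Wt1 ratio was 0.890 (0.442 to 1.64). Pax2 and Pax8 were each detected in 66.7% of these wells. The 4 macrophage wells of this plate held 20.6 CPM each of Wt1 and Pax2 and no Pax8 or Lhx1. Epithelial wells of this plate thus carried more Pax2 and Pax8 than stromal wells, with no difference in Wt1 beyond counting error.

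On the E11.5 cultured plate Lhx1 had no count in Six2-only wells, and Wt1 was found in all classes. In 25 Six2-only wells Wt1 was 314 CPM, Pax2 88.0 and Pax8 45.9, and Lhx1 had no count, whereas the 18 Six2-only wells at E12.5 held 23.1 counts. In 76 Foxd1-only wells Wt1 was 200 CPM, Pax2 14.2 and Pax8 8.73. The 6 wells with Epcam but without Six2 held 190 CPM of Pax2, 206 of Pax8 and 63.4 of Wt1, with Pax2 in 2 and Pax8 in 3 of the wells. The largest class, 166 wells with none of Six2, Foxd1 and Epcam, held 258 CPM of Wt1 but 6.32 of Pax2, 4.42 of Pax8 and 2.53 of Lhx1. Wt1 was detected in 61.4% of them at a median depth of 8317, in 64.5% of Foxd1-only wells at 10299, and in 23.5% of 17 macrophage wells at 11549 (4 wells, 6.81% to 49.9%). Here Wt1 detection in the wells without Six2 or Epcam was above that in macrophage wells. Pax2 was not low in the macrophage wells of this plate, at 95.5 CPM, and 24.1 of its 26.1 counts there came from the deep well M1, which also held 14 counts of Six2 and 31.1 of Foxd1. Without deep wells the macrophage wells held 6.09 CPM of Pax2.

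Lower levels in culture were also seen within Six2-only, Foxd1-only and partner-free wells. Between the uncultured and the E11.5 cultured plate, Wt1 was 2.36-fold lower in Six2-only wells (1.86 to 3.03), Pax2 5.19-fold (3.38 to 8.34) and Pax8 5.28-fold (2.92 to 10.5). In Foxd1-only wells Wt1 was 2.58-fold, Pax2 4.94-fold and Pax8 2.97-fold lower. In wells with none of the partners the difference ran from 1.56-fold for Wt1 (1.31 to 1.85) to 20.6-fold for Pax2 (10.5 to 44.9) and 32.5-fold for Pax8 (15.0 to 83.6). In wells with Epcam but without Six2, lower Pax2 and Pax8 rested on the deep wells, and lower Wt1 did not. Without deep wells, the E11.5 cultured plate over the uncultured plate gave 3.73 for Pax8 (1.15 to 15.7) and 1.06 for Pax2. Wt1 there gave 0.242 (0.0598 to 0.727). The E12.5 cultured plate gave 1.22 for Pax2, 0.386 for Wt1 (0.171 to 0.838) and an interval of 0.848 to 10.6 for Pax8. Macrophage wells also held less Wt1 in culture, 266 CPM on the uncultured and 102 on the E11.5 cultured plate. The part of free RNA in the within-class differences was not tested. Any count of a partner sets the class. Six2 had at least 2 counts in 111 of the 161 uncultured wells with it. On the cultured plates it had as many in 17 of 41 wells (E12.5) and in 13 of 52 (E11.5). Whether a class holds the same kind of cell on each plate was not tested. Between the uncultured and the E12.5 cultured plate, Six2-only wells were 2.35-fold lower in Wt1, 2.52-fold in Pax2 and 3.80-fold in Pax8, while Lhx1 gave 1.00 (0.593 to 1.75), with F9 holding 22.1 of its 23.1 counts. Between the cultured plates, with E11.5 over E12.5, Wt1 was 0.994 in Six2-only wells (0.727 to 1.36), 1.75 in Foxd1-only wells (1.35 to 2.31), 1.59 in wells with Six2 and Foxd1 (1.16 to 2.21), and in wells with none it was 258 CPM against 172. The higher Wt1 of the E11.5 cultured plate was therefore seen in wells with Foxd1 and in wells with none of the partners, and not in Six2-only wells; whether the classes differ in this was not tested.

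Co-detection was described in wells thinned to 3000 counts, since deep wells hold more genes of every kind. On the uncultured plate, Six2 was found in 60.3% of the 126 wells with Pax2 (51.2% to 68.9%) and in 21.8% of wells without it (15.8% to 28.7%). At full depth these shares were 63.9% and 26.7%. For Wt1 the Six2 shares were 47.1% with (40.2% to 54.1%) and 17.0% without (9.87% to 26.5%), or 52.3% and 24.1% at full depth. For Pax8 they were 47.8% and 35.4%, or 64.6% and 37.6% at full depth, and for Lhx1 46.9% and 37.1%, or 64.9% and 44.3%. For Pax8 and Lhx1 the intervals of the thinned shares overlap. For Wt1 and Pax2 they are separate. At full depth and at 3000 counts, Six2 was found in a larger share of wells with each member than without it. At 1000 counts this turned for Lhx1, with 13.3% of 15 wells against 18.9%.

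Foxd1 shares were lower in wells with Pax2, Pax8 or Lhx1 than in wells without, with overlapping intervals for each. Foxd1 was found in 29.9% of thinned uncultured wells with Pax8 and 48.5% of those without, in 28.1% with Lhx1 and 46.2% without, and in 37.3% with Pax2 and 49.4% without. At full depth the shares were 53.5% and 65.2% for Pax8, 54.4% and 62.1% for Lhx1, and 59.7% and 62.3% for Pax2. With Wt1 the Foxd1 share was higher, 47.6% against 36.4%, or 64.0% against 44.4% at full depth; the thinned intervals overlap. Epcam was rarer: it was found in 15.6% of 32 thinned wells with Lhx1 (5.28% to 32.8%) and 4.92% of those without, or 31.6% and 7.14% at full depth. Podxl was found in 2.40% of wells with Wt1 and 10.2% of wells without, or 6.01% and 14.8% at full depth. The wells with Podxl were of 2 kinds: 13 carried at least 4 of 11 endothelial markers and held 43.8 CPM of Wt1, and the other 12 held 1118, or 1018 in 9 wells without the deep ones.

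The members also went with each other. Pax8 was found in 56.2% of thinned uncultured wells with Lhx1 (18 of 32, 37.7% to 73.6%) and in 18.6% of those without (14.1% to 23.8%), or 68.4% and 31.4% at full depth. Pax2 was found in 62.7% of wells with Pax8 and 36.7% without, or 73.2% and 46.7%, and in 68.8% of wells with Lhx1 and 39.4% without, or 77.2% and 52.5%. By level at full depth, Pax8 was 424 CPM in uncultured wells with Lhx1 and 56.7 in wells without, a ratio of 7.49 (6.28 to 8.97). Lhx1 was 103 CPM in wells with Pax8 and 13.2 in wells without, a ratio of 7.80; without deep wells the 2 ratios were 7.85 and 7.04. Pax8 was 202 CPM with Pax2 and 34.0 without, and Lhx1 was 83.4 with Pax2 and 13.8 without. By comparison, Wt1 was 777 CPM with Six2 and 481 without, and Pax2 was 373 with Six2 and 124 without, 3.01-fold more. With Wt1 detected, Pax2 was 3.13-fold, Pax8 2.23-fold and Lhx1 2.19-fold higher than without it, smaller ratios than those between Pax8 and Lhx1.

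**Figure D3:**
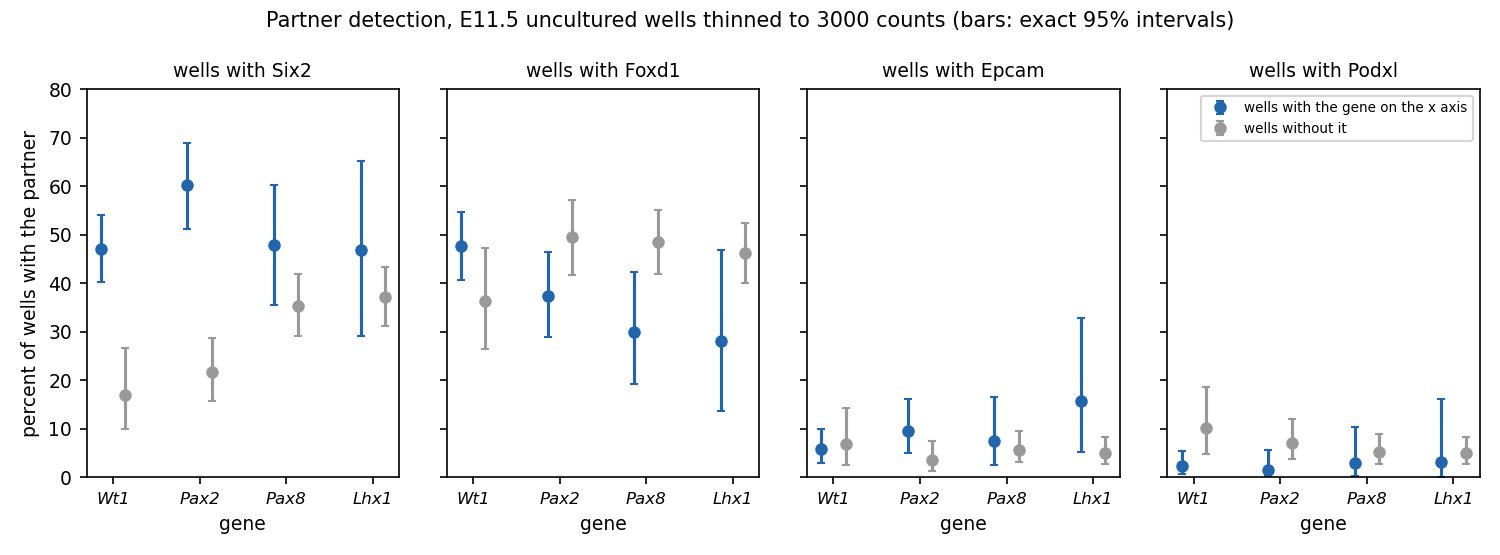
Percent of uncultured wells, thinned to 3000 counts, that held Six2, Foxd1, Epcam or Podxl, among wells with (blue) and without (grey) each member, with exact binomial 95% intervals. The Six2 shares with and without Pax2 (60.3% and 21.8%) and Wt1 (47.1% and 17.0%) are separate, and those for Pax8 and Lhx1 overlap.

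The shares of wells with each combination of the members differed between the plates. Of 296 thinned uncultured wells, 53 (17.9%) held none of the 4, 83 (28.0%) held Wt1 alone, 61 (20.6%) held Wt1 with Pax2 and neither other member, and 15 (5.07%) held all 4. Of the 83 with Wt1 alone, 50 held Foxd1 and 25 held Six2. Of the 61 with Wt1 and Pax2, 38 held Six2, and of the 15 with all 4, 9 held Six2, 3 Foxd1 and 1 Epcam. On the E12.5 cultured plate 132 of 191 wells (69.1%) held none, 37 (19.4%) held Wt1 alone and 1 held all 4. On the E11.5 cultured plate 159 of 288 wells (55.2%) held none, 111 (38.5%) held Wt1 alone and none held all 4. Of those 111, 84 held none of Six2, Foxd1 and Epcam. Over all thinned wells, 44.3% held Foxd1 on the uncultured plate, against 60.2% of those with Wt1 alone. On the E11.5 cultured plate 214 of all 288 wells (74.3%) held none of the 3 partners, close to the 75.7% among wells with Wt1 alone. Background differed between the plates too. Wt1 was detected in 10 of 15 control wells and Pax2 in 4 on the uncultured plate. On the cultured plates Wt1 was in 0 (E12.5) and 1 (E11.5) of 15 control wells. The part of background in these combinations was not tested.

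**Figure D4:**
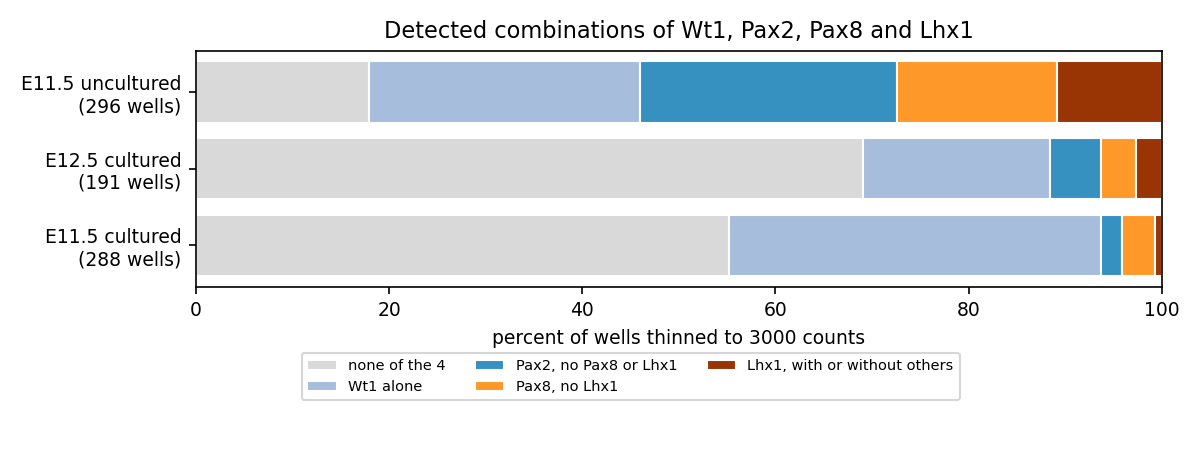
Percent of wells thinned to 3000 counts (stacked bars, 1 per plate) that held none of the members, Wt1 alone, Pax2 without Pax8 or Lhx1, Pax8 without Lhx1, or Lhx1. Wells with Pax2, Pax8 or Lhx1 make up 26.7%, 16.6% and 10.8% of uncultured wells in the last 3 groups, and 2.08%, 3.47% and 0.694% of E11.5 cultured wells.

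On the cultured plates the few wells with Pax2 held Six2 more often than other wells did. In thinned E12.5 cultured wells Six2 was found in 7 of 15 wells with Pax2 (46.7%) and 3.41% of those without, and Pax2 in 22.6% of wells with Wt1 and 2.17% of wells without. None of the 9 wells with Pax8 held Six2 or Foxd1. Podxl was found in 3 of 53 wells with Wt1 and in none of 138 without. In thinned E11.5 cultured wells Six2 was found in 4 of 10 wells with Pax2 (40%) and 4.68% of those without. At full depth, Pax2 there was 104 CPM in wells with Six2 and 13.7 in wells without, a ratio of 7.58, and Pax8 was 119 CPM with Epcam and 9.99 without, a ratio of 12.0. Pax2 was thus higher in wells with Six2, and Pax8 in wells with Epcam.

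Single wells give examples of some kinds of expression, chosen after their values were seen. An early nephron pattern was seen in uncultured well B2, with 12990 counts in all: it held 22.1 counts of Lhx1, 17 of Pax8, 15 of Pax2 and 2 of Wt1, none of Six2, Foxd1 or Epcam, and 10 of Wnt4 and 9 of Jag1, a signal and a Notch ligand of the renal vesicle. Uncultured well B5 held all 4 members (200.8 counts of Wt1, 139.3 of Pax2, 115.6 of Pax8 and 86.9 of Lhx1) with 150.7 of Wnt4, 22.1 of Six2 and 39.2 of Foxd1. B5 held 151478 counts, 22.5 times the plate median, and 32.1% of all Lhx1 counts of the plate; whether it holds more than 1 cell was not tested. On the E12.5 cultured plate F9 held 22.1 counts of Lhx1, 14 of Pax8, 13 of Pax2, 19 of Wt1, 4 of Six2 and 5 of Jag1. Progenitor markers were seen together with Pax8 in E11.5 cultured well C7, with 7 counts of Wt1, 6 of Pax2, 6 of Pax8, 8 of Six2 and 12 of Cited1, a marker of uninduced cap cells. C7 also held 1 count of Fgf8, and its Pax8 level of 808 CPM was the highest on its plate. Each of these wells holds Pax2 and Pax8 together.

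Examples of wells with Wt1 and few or no counts of the other members follow. They do not cover all such wells: E11.5 cultured well N19 held 12 counts of Wt1 and 13 of Wnt4, with no Podxl or Upk3b. A podocyte pattern was seen in E12.5 cultured well L23, with 25.1 counts of Wt1, 45.2 of Podxl, 12 of Synpo and 3 of Nphs1, which encodes a slit diaphragm protein, and no Pax2, Pax8 or Lhx1. In E11.5 cultured well G13, 33.1 counts of Wt1 stood with 45.2 of Podxl and 11 of Synpo, and Pax8 had 1 count. A mesothelial pattern was seen in E11.5 cultured wells N2 and N23, with 12 and 13 counts of Wt1, 8 and 7 of Podxl, and 26.1 and 19 of Upk3b, a mesothelium and urothelium gene, and no Pax2, Pax8 or Lhx1. On the uncultured plate L1 held 11 counts of Wt1, 7 of Podxl and 3 of Upk3b. It also held 7 counts of Lhx9 and 2 of Gata4, both gonad markers. Nphs1 had no count in any kept well of that plate. Epithelium with little Wt1 was seen in E12.5 cultured well B12, with 8 counts of Pax2, 12 of Epcam, 20 of Gata3 and 19 of Krt19, and no Wt1 or Pax8. In E11.5 cultured well F6, 7 counts of Pax8 and 1 of Lhx1 stood with 11 of Epcam, 10 of Krt19 and 1 of Wt1.

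Both cultured plates carry 42 wells labelled as holding more than 1 cell, with 642840 counts at E12.5 and 632925 at E11.5. On the E12.5 cultured plate all 4 members were higher there than in single-cell wells: Wt1 was 519 CPM (465 to 578), Pax2 347 (303 to 396), Pax8 215 and Lhx1 77.8 (57.7 to 102.5). The ratios were 3.07 for Wt1 (2.66 to 3.57), 7.29 for Pax2 (5.77 to 9.21), 8.27 for Pax8 (6.07 to 11.4) and 5.06 for Lhx1 (3.24 to 8.02), where 9.63% of 13604 genes were at least 2-fold higher and 7.98% at least 2-fold lower. Well C23 held 28.8% of the Wt1 counts, with 44.2 counts of Podxl. Six2 was 5.20-fold and Epcam 4.83-fold higher in these wells, and Foxd1 stood at 0.513 of its single-cell level (0.382 to 0.678). On the E11.5 cultured plate Wt1 was 297 CPM (256 to 343), Pax2 93.2 (71.0 to 120.2), Pax8 75.8 (55.9 to 100.6) and Lhx1 11.1 (4.45 to 22.8). The ratios were 1.20 for Wt1 (1.02 to 1.41), 2.93 for Pax2 (2.09 to 4.08), 5.53 for Pax8 (3.60 to 8.53) and 7.10 for Lhx1 (1.94 to 28.4), the last from 7 counts against 5. There 3 of the 4 members passed 2-fold, where 6% of 14433 genes were at least 2-fold higher and 5.59% at least 2-fold lower. With all wells weighted equally the Wt1 ratio was 2.32, Pax2 6.55 and Pax8 8.82, and against single-cell wells of rows A to G alone Pax8 was 2.69. CPM is a share of the counts of a well, so a higher level does not follow from more cells in it; how the multi-cell wells were gated is not known from the labels.

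Summed levels of marker lists differed between the plates as well. The nephron progenitor list summed to 1632 CPM uncultured, 537 on the E12.5 and 401 on the E11.5 cultured plate, and the stroma list to 6636, 18862 and 24871. In multi-cell wells the nephron progenitor list summed to 2343 and 1067 CPM and the stroma list to 6605 and 24602. The coelomic list, whose cells also express Wt1, summed to 704, 140 and 158 CPM, and the gonad list to 147, 141 and 127. In the gonad list Foxl2 and Amh were at 0 on the uncultured plate. Nr5a1, Amh and Cyp11a1 were at 0 on both cultured plates, and Gata4 and Foxl2 also on the E12.5 cultured plate. The gonad list shares Sox9 and Emx2 with the ureteric list. Spinal inhibitory neurons express Lhx1 and Pax2 too: their list summed to 376, 74.1 and 50.2 CPM, Lhx1 and Pax2 included, with 7 of 9 markers detected and Dmbx1 and Lhx5 at 0 on the uncultured plate. Pax2 alone stood at 297, 47.7 and 31.8 CPM and Lhx1 at 65.1, 15.4 and 1.56. Most of each sum was therefore these 2 members, so the sums give no separate level of such neurons. The podocyte list summed to 1578, 1605 and 1699 CPM, with Nphs1 and Col4a3 among the markers at 0 on the uncultured plate. The part of these cell types in the levels of the members was not tested.

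Genes of the same families and pathways give a setting for the 4. Over all 15777 genes of the first comparison, 11.4% were at least 2-fold lower and 20.9% higher, and the counts below stand beside those shares. Of 4 Pax genes with enough counts on the E11.5 cultured and uncultured plates, 4 were at least 2-fold lower. Besides Pax2 and Pax8 these were Pax1, at 52 counts against 1, and Pax9, at 14 against 1. Their median log2 ratio was −3.37, against 0.07 over all genes. It lay midway between Pax8 (−3.52) and Pax2 (−3.22), so it restates these members and is no separate value for the family. Of 12 LIM genes, 1 was higher and 3 were lower, with a median of −0.03. Lmx1b was 8.71-fold and Lhx9, a gonad and coelomic gene, 3.09-fold lower, and Isl1 was 4.57-fold higher. The remaining lower LIM gene was Lhx1 itself. Of 13 genes for Pax cofactors 4 were lower and none higher, with Eya1 8.47-fold, Sall1 7.81-fold and Hoxc11 4.54-fold lower; Eya1 encodes a coactivator and Sall1 a nuclear factor of the cap. Of 13 cap mesenchyme genes 9 were lower and none higher, with a median of −2.47, among them Uncx at 17.7-fold. Of 24 genes of the pretubular aggregate and renal vesicle, which include Lhx1 and Pax8, 13 were lower and 4 higher, with a median of −1.31: Fgf8 had 52 counts uncultured and 1 in culture, and the Notch target Hey1 was 3.38-fold lower. Of 20 podocyte genes 7 were higher and 5 lower, with a median of 0.64, with Tcf21 at 5.60-fold and Synpo at 4.70-fold higher and Foxc1 at 4.96-fold lower. Of 7 genes on the list of Wt1, its antisense gene and its partners, 1 was higher (median −0.08). The 1 lower gene of that list was Wt1 itself. Of 19 ureteric bud genes 4 were higher and 6 lower (−0.25). Of 23 stroma genes 9 were higher and 6 lower (0.76), with Col1a1, a fibrillar collagen gene, at 18.5-fold higher. Some genes are in more than 1 list. On the E12.5 cultured plate against the same uncultured wells, 4 of 4 Pax genes were lower. Their median of −2.62 again lay midway between Pax2 (−2.64) and Pax8 (−2.60). There 8 of 13 cap genes were lower and none higher (−1.62), and of 25 vesicle genes 10 were lower and 5 higher (−0.54). The median over all genes was −0.01, with 12.4% lower and 18.9% higher. For the cap list in multi-cell wells, 9 of 13 genes were at least 2-fold higher at E12.5 and 9 of 13 at E11.5, with medians of 2.38 and 1.55, beside 9.63% and 6% of all genes.

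The genes whose counts followed each member most closely over the 337 uncultured wells were found by Pearson's r of log(1 + counts per 10000), among 9621 genes detected in at least 10% of wells. The wells share 1 library and differ in depth, so these values only describe. For Wt1 they were Gas1 (r = 0.42), Uncx (0.40), Hoxc10 (0.37), Spock2 (0.35) and Rdh10 (0.34). For Pax2 they were Uncx (0.54), Eya1 (0.47), Wfdc2 (0.46), Pax8 (0.44) and Capn6 (0.43). For Pax8 they were Lhx1 (0.48), Bmp2 (0.47), Wfdc2 (0.47), Pax2 (0.44) and Emid1 (0.43). For Lhx1 they were Lhx1os (0.58), Jag1 (0.48), Wfdc2 (0.48), Pax8 (0.48) and Smtnl2 (0.43). Uncx stands in the lists of Wt1 and Pax2, and Wfdc2 in those of Pax2, Pax8 and Lhx1, whereas Wt1 and Lhx1 had r = 0.00 with each other. In culture the genes most like Wt1 were others: Shroom3 (0.54), Uncx (0.42), Msi2 (0.42), Itga3 (0.42) and Epb41l5 (0.40) over 200 wells of the E12.5 plate, and Igfbp5 (0.33), Dlk1 (0.31), Tgfbi (0.29), Plat (0.29) and Loxl1 (0.29) over 300 wells of the E11.5 plate. Uncx alone of these is also in the uncultured list for Wt1.

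Wt1 and Lhx1 each have an antisense neighbour that was counted. Lhx1os had 75.1 counts uncultured, 13 on the E12.5 and 1 on the E11.5 cultured plate, and 26 of the 35 uncultured wells with it also held Lhx1. Wt1os had 48, 14 and 19 counts, and all 37 uncultured wells with it also held Wt1. In RefSeq on GRCm38.p6 both antisense genes lie beside the member without overlapping it. Gm13415, which overlaps Pax8, had no counts in the kept wells, and 1700039E22Rik, which overlaps Pax2, had 1. The labels do not say whether the counting used strand, so reads of these overlapping genes cannot be told apart.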

How the data were processed

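Values came from the 3 deposited transcript tables, 1 per plate. Per the file headers and the values, the authors deposited expected counts, 1 value for each gene in each well, corrected for identifier collisions, so they need not be whole. Per the submitters' processing notes, STAR 2.6.1a, featureCounts 1.5.2 and the build GRCm38.p5 were used; the labels name no filters and no strand setting. The column for reads without a well barcode (4.21% to 4.27% of counts), spike-ins and mitochondrial genes stayed out of the totals. Counts were summed over wells and scaled to 1000000 (CPM), with exact Poisson intervals; ratios and shares have exact binomial (Clopper-Pearson) intervals at 95%, computed with scipy 1.17.1, numpy 2.4.6 and pandas 2.3.3 in Python 3.11.15, with figures in matplotlib 3.10.9. Values were rounded to whole numbers for intervals and thinning. With 1 plate per group there is no test, and wells are not replicates. A gene entered a plate ratio over all genes with at least 10 counts in the pair, and was counted as higher or lower at 2-fold. A count of 0 is set beside a floor of 3 counts, which is not the end of an exact Poisson interval. No doublet caller was run; results are also given without deep wells. The plates carry the same 384 well barcodes by design.

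The genes named are the 4 members, the 4 partners, the 5 genes most correlated with each member, and from each of 9 gene lists up to 4 genes past 2-fold with the most counts. Some genes that this rule would name are not reported here. Single wells named were chosen after their values were seen. The members and lists were chosen with earlier results of these data known. Alternatives were 2 thinning depths (3000 and 1000 counts), a detection minimum of 2 counts, wells left out, equal weight per well, and other totals. The ratio and thinning code was tested on simulated data.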

Additional observations from a re-analysis of the deposited data

Results flagged for a closer look

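Effects whose values over all kept wells pointed opposite ways on different plates are listed here; none of the differences was tested. In multi-cell over single-cell wells Foxd1 gave 0.513 at E12.5 and 3.89 at E11.5 in culture; at E11.5 the single well D19 held 71.6% of the multi-cell Foxd1 counts. Wt1 in wells with over without Foxd1 gave 1.31 on the uncultured, 0.698 on the E12.5 cultured and 0.908 on the E11.5 cultured plate. Wt1 with over without Epcam gave 1.29, 0.587 and 0.586 in the same order, but 0.886 on the uncultured plate without deep wells, so that all 3 then pointed the same way. Wt1 with over without Podxl gave 0.859, 3.77 and 1.46. Pax2 with over without Foxd1 gave 0.829, 0.296 and 2.55. On the E11.5 cultured plate the deep well M1 held 23.6% of all Pax2 counts, and with equal weight per well the value there was 0.907, below 1 as on the other plates. In data outside the comparisons, the 127 wells of the E12.5 cultured plate that were not kept held 5 Wt1 counts, or 212 CPM (69.0 to 496), where the control wells of that plate held none.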

How the results depend on the processing

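No paired analysis was possible because each condition is 1 plate with no replicate. Of 84 alternative values for ratios between plates, 78 stayed within the counting interval, 6 moved beyond it and 0 reversed; of 32 for multi-cell over single-cell wells, 26 stayed; of 144 for levels with over without a partner, 89 stayed, 47 moved and 8 reversed. Co-detection shares were the least steady: 150 of 336 moved, among them 67 of 84 at 1000 counts, 45 of 84 with 2 counts required and 38 of 84 at 3000 counts. The cause of these shifts was not tested. Without deep wells, Wt1 over the uncultured plate was 0.391 (E11.5 cultured) and 0.275 (E12.5 cultured). Lhx1 was 0.0759 (E11.5 cultured) with equal weight per well and 0.131 (E12.5 cultured) without the highest wells. For multi-cell over single-cell wells, Wt1 without the multi-cell well richest in it, an alternative chosen after seeing the data, was 2.26 (E12.5) and 1.01 (E11.5); at E11.5 equal weight gave 2.32 for Wt1, 6.55 for Pax2 and 8.82 for Pax8, and single wells of rows A to G gave 2.69 for Pax8.

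On the uncultured plate, levels with over without a partner were, without deep wells, 1.45 for Wt1 with Six2, 1.07 for Wt1 with Foxd1, 0.886 for Wt1 with Epcam (reversed), 0.628 for Pax2 with Foxd1, 2.37 for Pax8 with Six2, 0.338 for Pax8 with Foxd1, 0.171 for Pax8 with Podxl (reversed), 0.263 for Lhx1 with Foxd1 and 0.0860 for Lhx1 with Podxl (reversed). With equal weight per well they were 1.34 for Wt1 with Six2, 1.12 for Wt1 with Foxd1, 2.42 for Pax2 with Six2, 0.714 for Pax2 with Foxd1, 0.461 for Pax8 with Foxd1, 0.523 for Pax8 with Podxl (reversed), 0.448 for Lhx1 with Foxd1 and 0.809 for Lhx1 with Podxl (reversed). With 2 counts of the partner required they were 1.44 for Pax8 with Six2, 0.682 for Pax8 with Foxd1 and 0.987 for Lhx1 with Epcam (reversed). On the E11.5 cultured plate, Pax2 with Foxd1 was 0.907 at equal weight and Pax8 with Podxl 0.908 with 2 counts required, both reversed. The share of uncultured wells that held Six2 was, after thinning to 1000 counts, 23.9% of Wt1, 29.7% of Pax2, 25.8% of Pax8 and 13.3% of Lhx1 wells, after thinning to 3000 counts 47.8% of Pax8 and 46.9% of Lhx1 wells, and 44.3% of Wt1 wells with 2 counts required. Low counts limit these shares too: Lhx1 on the E11.5 cultured plate rests on 5 counts in 3 wells.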
